A study of Homo sapiens with 16 samples.

Results

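The 82 genes described here encode the proteins of the cytosolic ribosome. They were the rows of the count table whose symbol is that of a large-subunit or small-subunit ribosomal protein, or RPLP0, RPLP1, RPLP2 or RPSA, and that held at least 100 counts in each of 16 libraries. Of 63187 genes in the table, 84 fitted the names and 82 passed the minimum. They comprise 47 genes of the large subunit, 32 of the small subunit and 3 of the acidic stalk, and 5 of them are retained copies of another member (RPL7L1, RPL22L1, RPL26L1, RPL39L and RPS27L). Just inside the minimum were RPL39L, with 424 to 748 counts per library, and RPS27L, with 704 to 1082. The rows left out were RPL3L, with 0 to 6 counts, and RPL10L, with 4 to 20. The name pattern allows at most 1 letter, A, X or L, after the number and further digits, so ribosomal protein genes with other symbols, such as RPL36AL and FAU, are not among the members.

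The libraries came from SK-N-BE(2), a human neuroblastoma line with amplified MYCN, grown in air with 21% oxygen and 10% serum. Cells labelled WT were set beside 3 transfected groups, each given a form of HIF-2α, a transcription factor that accumulates at low oxygen (gene EPAS1). The group FL received the whole protein. The groups NCTAD and cIDR received the variants written ΔN-CTAD and Δc-IDR in the design text. Each group had 4 libraries, and replicates 1 to 4 are also labelled batch 1 to 4, so that each batch holds 1 library of each group. The sources used here do not give the altered residues, the vector, the harvest time or any mock treatment of WT cells, so transfection and HIF-2α cannot be told apart in comparisons with WT. The library names spell the line BE2c, and they write CTRL for the group titled WT and WT for the group titled FL. Groups follow the titles here. Nothing says that the 4 libraries of a group came from separate cultures, so p-values measure the spread between these libraries.

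Ribosomal proteins are made in near-equal numbers and assembled with ribosomal RNA in the nucleolus. Most of their messages start with a C followed by a run of pyrimidines, the terminal oligopyrimidine (TOP) tract, through which the kinase complex mTORC1 and the RNA-binding protein LARP1 adjust translation and message stability to nutrients and stress. MYC proteins are known to raise ribosome production, and low oxygen is known to reduce it.

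The start of the message is shown for members on which the results turn, and for 3 pairs of a member and its copy. RefSeq windows (GRCh38.p14) of 250 bases before and 50 bases after a listed start were found for 66 of the 82 members. Each line gives 10 bases before and 20 from the start, 5′ to 3′ on the gene's strand. Capitals mark a tract, counted from a C within 3 bases of the start and running for at least 5 bases of C or T. Pyrimidines directly before the capitals, as in RPL13A, RPL22, RPL22L1 and RPL26, were not counted in its length.
RPL3, chr22:39319604-39319633, minus strand: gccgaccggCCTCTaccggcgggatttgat
RPL13A, chr19:49487598-49487627, plus strand: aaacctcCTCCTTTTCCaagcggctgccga
RPL4, chr15:66504836-66504865, minus strand: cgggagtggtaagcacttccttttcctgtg
RPS26, chr12:56041908-56041937, plus strand: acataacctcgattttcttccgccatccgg
RPLP0, chr12:120201092-120201121, minus strand: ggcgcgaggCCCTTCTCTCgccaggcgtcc
RPLP1, chr15:69452808-69452837, plus strand: ggcgcgagagCCCCTTTCCTCagctgccgc
RPL22, chr1:6199576-6199605, minus strand: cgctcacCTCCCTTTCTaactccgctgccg
RPL22L1, chr3:170870176-170870205, minus strand: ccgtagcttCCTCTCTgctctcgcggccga
RPL26, chr17:8383174-8383203, minus strand: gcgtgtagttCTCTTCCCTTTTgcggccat
RPL26L1, chr5:172958870-172958899, plus strand: ggcggcggccacaaacccgcaggcacgccg
RPS27, chr1:153990752-153990781, plus strand: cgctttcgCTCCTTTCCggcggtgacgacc
RPS27L, chr15:63157458-63157487, minus strand: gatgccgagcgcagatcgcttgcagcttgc

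Such a tract was present at a listed start of 53 of the 66 members (80.3%), against 4374 of 27305 genes with a RefSeq window (16.02%). The 13 members without one were RPL4, RPL6, RPL9, RPL15, RPL17, RPL27, RPS4X, RPS15, RPS26, RPS29, RPL7L1, RPL26L1 and RPS27L. Of the copies with a window, RPL22L1 had a tract, of 7 bases against 10 in RPL22, and RPL26L1, RPS27L and RPL7L1 had none. The search reads only the listed starts, and the RPL4 and RPS26 windows above each have a pyrimidine-rich stretch further inside that it did not count. Within the windows of 300 bases, on both strands, ACGTG (the core of the site that HIF proteins bind) occurred in 22 of 66 members (33.3%) and in 24.9% of all genes. CACGTG, a site bound by MYC proteins that contains ACGTG, occurred in 5 members (7.58%) and 8.77% of all genes. CCGGAAG, a site bound by ETS factors, occurred in 24 members (36.4%) and 12.2% of all genes. A match in these letters is a description of the sequence and not a bound site.

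Totals were 38.6 to 56.1 M (mega) counts per library. EPAS1, the check of the labels, averaged 18.2 CPM (counts per 1 M, scaled with TMM) for WT (SD 6.89, n = 4), 2609 for FL (SD 906, n = 4), 2851 for NCTAD (SD 1330, n = 4) and 4484 for cIDR (SD 1740, n = 4). This set WT apart, but the constructs overlapped, at 1691 to 3580 for FL, 1320 to 4228 for NCTAD and 2189 to 5852 for cIDR. EPAS1 therefore cannot check which construct a library received. Markers of adrenergic neuroblastoma were present in every library, among them MYCN at 2593 to 3410 CPM, while TH was low at 0.86 to 10.2. Markers of blood, epithelium, endothelium and liver reached at most 0.86 CPM, and among fibroblast genes DCN reached 18.7 and COL1A1 6.44 with COL1A2 at 0 to 0.072. FL in batch 4 stood apart in mitochondrial transcripts, at 2.55% of counts against 6.20% to 10.3% in the other 15 libraries.

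Compared per length, as TPM (transcripts per 1 M), the members spanned a wide range. RPS2, a small-subunit protein at the mRNA entry, was highest at 5872 TPM (SD 525, n = 16), followed by RPL37A at 4719 (SD 391, n = 16) and RPS23 at 4092 (SD 364, n = 16). RPL37A and RPS23 lie less than 2 SD apart. The median member stood at 1931 TPM. The 5 copies held the lowest places. RPL39L, the copy of the exit-tunnel protein RPL39, had 31.0 TPM (SD 2.75, n = 16) against 1913 for RPL39 (SD 158, n = 16). RPS27L had 50.4 TPM (SD 4.08) beside 3803 for RPS27, and RPL26L1 had 81.9 (SD 5.03) beside 1650 for RPL26. RPL7L1 had 103 TPM beside 2304 for RPL7. The closest pair was RPL22L1 at 224 TPM (SD 20.04) and RPL22 at 558 (SD 45.6), both proteins also known to bind RNA outside the ribosome. RPL22 was the lowest of the members that are not copies.

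Each member varied little across the 16 libraries. The coefficient of variation of CPM ran from 7.21% (RPS27L) to 15.9% (RPL13A) with a median of 10.9%. The highest library exceeded the lowest by a median of 1.45 times, and by 1.74 times in RPL36A, the widest case. Batch accounted for a median of 69.6% of a member's variance in log2 CPM and group for 6.50%, against 53.8% and 7.85% over all 19530 genes tested. RPL3 was the most batch-bound, at 84.8%, and RPL39L the least, at 2.40%. Group took its largest part in 2 copies, 27.2% in RPS27L and 21.4% in RPL22L1, picked as the highest values among the members. Neither was called in any comparison of groups.

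Summed, the members took 5.36% to 7.34% of a library's counts. In batch 1 the share was 6.42% for WT, 7.34% for FL, 6.88% for NCTAD and 6.19% for cIDR. In batch 2 it was 6.73%, 6.50%, 6.83% and 7.03% in the same order. Batch 1 held the library with the highest share, and the 4 libraries of batch 2 lay between 6.50% and 7.03%. In batch 3 it was 5.63%, 5.57%, 5.36% and 5.65%, and in batch 4 it was 5.75%, 6.38%, 5.50% and 5.97% in the same order. Batch 3 lay wholly below batches 1 and 2, and FL in batch 4 overlapped batch 1. By group the share averaged 6.13% for WT (SD 0.529, n = 4), 6.44% for FL (SD 0.725, n = 4), 6.14% for NCTAD (SD 0.823, n = 4) and 6.21% for cIDR (SD 0.590, n = 4), differences smaller than the spread within a group.

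**Figure D1:**
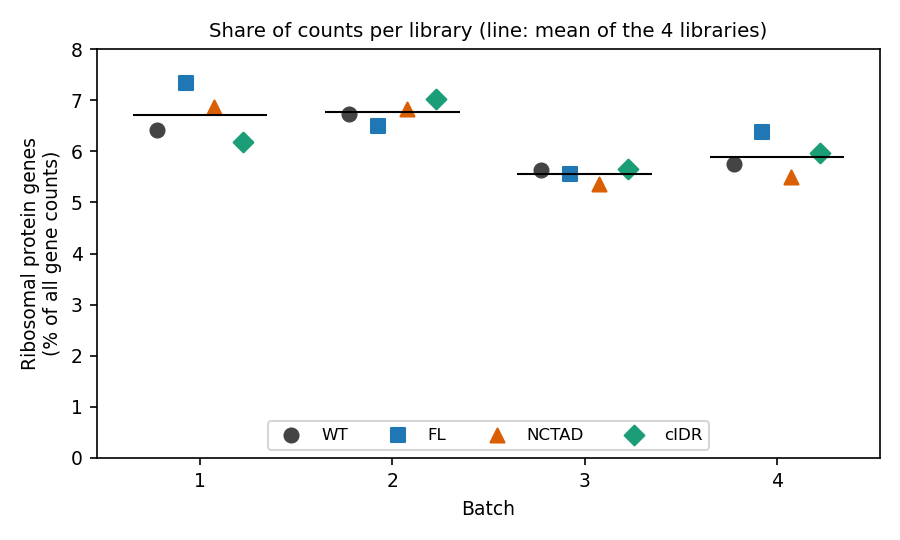
Share of all gene counts taken by the 82 ribosomal protein genes (vertical axis, percent) in each library, by batch (horizontal axis) and group (symbols). The line is the mean of the 4 libraries of a batch: 6.71% in batch 1, 6.77% in batch 2, 5.55% in batch 3 and 5.90% in batch 4.

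The study asked how each form of HIF-2α changes the transcriptome, and for the ribosomal protein genes no comparison of groups passed the test. With group as the only term, edgeR called 0 of 82 members at an adjusted p under 0.05 in FL against WT, where it called 0.0102% of all genes, 0 in NCTAD against WT (0.0256% of all genes) and 0 in cIDR against WT (0.0102%). It called 0 members in NCTAD against FL, cIDR against FL and cIDR against NCTAD, each beside 0.0% of all genes. In none of the 6 comparisons did a member reach an unadjusted p under 0.05, and DESeq2 called 0 as well. With batch as a replicate block, edgeR again called 0 members in the 6 comparisons, beside 0.102%, 0.456% and 0.486% of all genes for FL, NCTAD and cIDR against WT and 0.0%, 0.0307% and 0.00512% for the comparisons between constructs in the order above. An unadjusted p under 0.05 was then reached by 5 members in FL against WT and 2 in cIDR against WT.

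The values behind this were small and mostly positive against WT. In FL the log2 fold change over WT was above 0 in all 82 members, with a median of 0.10 and a range of 0.040 to 0.17, beside a median of 0.014 over all genes. In NCTAD it was above 0 in 78 members (median 0.058) and in cIDR in 80 (median 0.063). The sign for these 2 constructs depended on scaling: with batch in the fit, the NCTAD median of 0.051 became −0.012 when libraries were scaled by their totals and −0.021 in TPM, and the cIDR median of 0.064 became 0.014 and −0.00057. The FL median stayed above 0 in each scaling tried, but it rested on 1 library. With group alone, it was −0.0071 without FL replicate 1 and 0.17 without FL replicate 3, the lowest and highest values when any 1 library was left out. The NCTAD median ran from −0.029 without NCTAD replicate 1 to 0.12 without NCTAD replicate 3, and the cIDR median from 0.014 without cIDR replicate 2 to 0.095 without cIDR replicate 3. The median standard error of a member for FL against WT was 0.116 with group alone and 0.0647 with batch in the fit. Over the 82 members, the outermost limits of the single 95% intervals were −0.25 and 0.51 with group alone and −0.13 and 0.36 with batch.

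Within batches the constructs did not move the members in 1 direction. FL minus WT had a median difference in log2 CPM of 0.30 in batch 1, −0.031 in batch 2, −0.0080 in batch 3 and 0.14 in batch 4. It was thus positive in 82 of 82 members in batch 1 and in 17 of 82 in batch 2. NCTAD minus WT gave 0.22, 0.035, −0.044 and −0.0025 in batches 1 to 4. With TMM scaling, only cIDR minus WT had a positive median in each batch, at 0.029, 0.088, 0.034 and 0.090, and 48 of 82 members were higher in cIDR than in WT in 4 of 4 batches, against 10.5% of all genes. In batch 1 the members' share of counts was lower in cIDR (6.19%) than in WT (6.42%), so the sign there depended on scaling. The count of 48 was made with TMM scaling only, none of the 48 passed the test, and members share their libraries and are not replicates. FL in batch 1, where the difference from WT was widest, had the highest share of the 16 libraries. In batch 4 FL also had the low mitochondrial share given above, whose part in the difference was not tested.

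**Figure D2:**
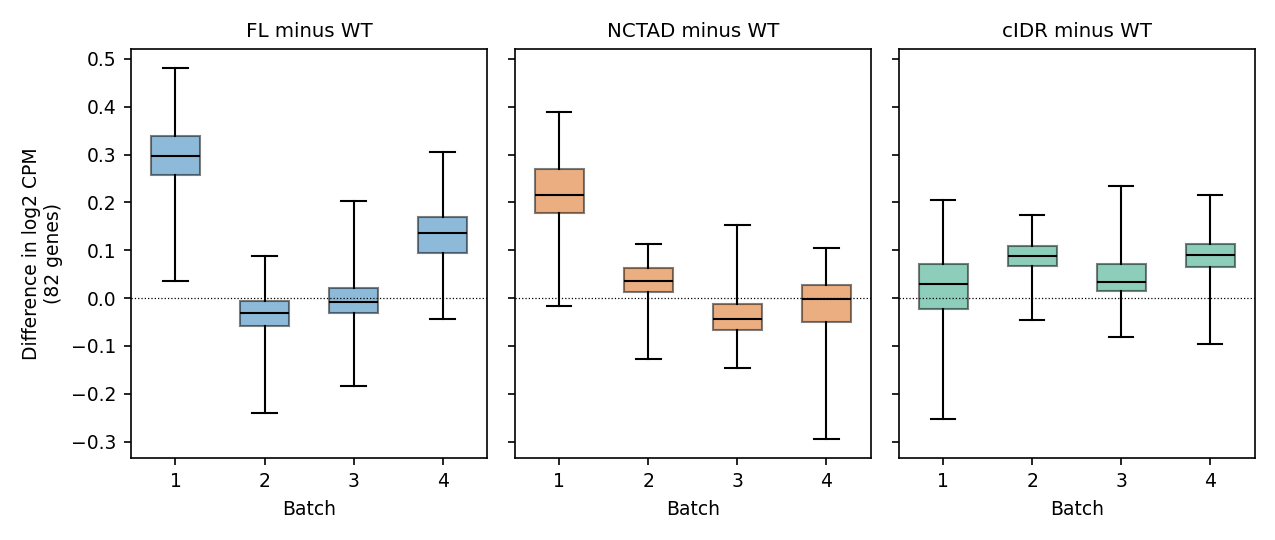
Difference in log2 CPM between each construct and WT of the same batch, for the 82 genes (box: middle 50%, line: median, whiskers: lowest and highest gene). FL and NCTAD exceed WT in batch 1 (medians 0.30 and 0.22) and lie near 0 in batches 2 and 3, and cIDR medians run from 0.029 to 0.090.

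RPL28, a large-subunit protein particular to eukaryotes, was among the 3 with the smallest p against WT for each construct. Its CPM in batches 1 to 4 was 529, 515, 480 and 467 in WT, 688, 504, 493 and 514 in FL, 638, 527, 500 and 498 in NCTAD, and 590, 541, 507 and 543 in cIDR. The groups overlapped, and FL in batch 1 lay above every other library. The log2 fold change over WT was 0.14 for FL (SE 0.110, edgeR adjusted p = 1), 0.12 for NCTAD (SE 0.110, adjusted p = 1) and 0.13 for cIDR (SE 0.110, adjusted p = 1). Without FL replicate 1 the value for FL was 0.0021.

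RPL41, the smallest ribosomal protein, had 816, 801, 710 and 710 CPM in WT in batches 1 to 4 and 1056, 788, 757 and 810 in FL. FL was above WT in 3 of 4 batches, and the log2 fold change was 0.17 (SE 0.107, edgeR adjusted p = 1), or 0.034 without FL replicate 1. RPL23, a large-subunit protein also known to bind MDM2, had 734, 698, 652 and 662 CPM in WT and 923, 724, 666 and 714 in FL. It was higher in FL in 4 of 4 batches, by 0.14 on the log2 scale (SE 0.099, edgeR adjusted p = 1), and by 0.017 without FL replicate 1.

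RPSA, a small-subunit protein also known as a laminin receptor, had 874, 882, 823 and 811 CPM in WT, 1133, 911, 801 and 830 in NCTAD and 1000, 953, 866 and 865 in cIDR. The cIDR values exceeded the WT values of the same batch in 4 of 4 batches, yet the groups overlapped, and the log2 fold change was 0.12 (SE 0.110, edgeR adjusted p = 1). For NCTAD it was 0.12 (SE 0.110, edgeR adjusted p = 1) and −0.0023 without NCTAD replicate 1. RPS15A, a small-subunit protein, had 502, 512, 432 and 469 CPM in WT and 532, 557, 468 and 501 in cIDR. The within-batch difference of 0.10 (SD 0.017, n = 4 batches) was the most even of those named, with an edgeR adjusted p of 1 without the block and 0.909 with it.

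Only 2 of the 82 members separated 2 groups without overlap of libraries, and both were found after their values were seen. RPS13, a small-subunit protein, had 251, 253, 237 and 251 CPM in WT and 258, 262, 255 and 266 in cIDR, with the lowest cIDR library at 254.9 and the highest WT library at 253.5. Of all genes, 0.876% lay wholly higher in cIDR than in WT. The log2 fold change of RPS13 was 0.067 (SE 0.085, edgeR adjusted p = 1). RPS27L, the copy of RPS27 known as a p53 target, had 18.7, 16.5, 18.9 and 17.1 CPM in NCTAD and 19.5, 19.1, 19.98 and 19.6 in cIDR. Of all genes, 0.302% lay wholly higher in cIDR than in NCTAD, and the log2 fold change of RPS27L was 0.14 (SE 0.085, edgeR adjusted p = 1).

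Between constructs the smallest p belonged to copies and to genes high in FL of batch 1. RPS27L was 0.12 lower on the log2 scale in NCTAD than in FL (−0.12, SE 0.085, edgeR adjusted p = 1). RPL22L1 had 77.7, 63.4, 71.7 and 75.1 CPM in FL, 68.8, 62.7, 65.6 and 70.0 in NCTAD and 64.9, 70.1, 74.3 and 79.5 in cIDR. NCTAD was below FL in each batch, and the log2 fold change was −0.11 (SE 0.083, edgeR adjusted p = 1), while cIDR against NCTAD gave 0.11 (SE 0.083, adjusted p = 1). RPL36A, a large-subunit protein whose reads can also fall on its readthrough gene with HNRNPH2, had 427, 301, 257 and 276 CPM in FL and 257, 326, 250 and 276 in cIDR. Its log2 fold change of −0.19 (SE 0.146, edgeR adjusted p = 1) became 0.00022 without FL replicate 1. RPS12 gave −0.13 in cIDR against FL and −0.11 in NCTAD against FL (SE 0.121 in each, edgeR adjusted p = 1), and both turned positive without FL replicate 1, at 0.0070 and 0.016. RPL23 in cIDR against FL gave −0.10 (SE 0.099) and 0.015 without that library, and RPL26L1 in cIDR against NCTAD gave −0.066 (SE 0.093) and 0.033 without NCTAD replicate 1 (edgeR adjusted p = 1 for both).

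Differences between batches were larger than those between groups. A batch was tested against the mean of the other batches with group in the model, and since each batch is a single event, p measures only the spread of libraries within batches. In batch 1, 73 of 82 members were higher and 0 lower (median log2 fold change 0.21), where 14.9% of all genes were higher and 9.77% lower. In batch 2, 26 were higher and 1 lower (median 0.088), beside 27.7% and 26.1% of all genes, a share of members higher that is near the background. In batch 3, 63 were lower and 0 higher (median −0.20), beside 8.31% and 7.66% of all genes. Mitochondrial transcripts averaged 9.02% of counts in batch 3 (SD 1.29, n = 4) against 7.17% in batch 1, 7.0% in batch 2 and 7.33% in batch 4, where 3 libraries lay between 8.73% and 9.20%. The part of this share in the lower members was not tested. In batch 4, 5 were lower and 0 higher (median −0.099), beside 6.87% and 6.57%. Over all genes the median was between −0.0084 and 0.035 in these 4 comparisons. These counts rest on single libraries: the 73 became 32 without NCTAD replicate 1, the 63 became 16, 18 and 31 without replicate 3 of FL, NCTAD and cIDR, and the 26 ranged from 8 without cIDR replicate 2 to 44 without FL replicate 1. On log2(TPM + 1) with limma the 73, 63 and 5 became 10, 31 and 0, and with library totals the 26 became 50 and the 73 became 43.

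The order of the batches was shared by most members. Mean log2 CPM ran from high to low in the order batch 1, 2, 4, 3 in 64 of 82 members and in the order 2, 1, 4, 3 in 11 more, so that batches 1 and 2 both stood above batches 3 and 4 in 75. Batch 3 was lowest in 77 members. Tested in pairs with edgeR, 75 members were higher and 0 lower in batch 1 than in batch 3 (8.26% and 5.83% of all genes). In batch 1 against batch 4, 52 were higher and 0 lower (5.98% and 4.17%). In batch 2 against batch 3, 54 were higher and 0 lower (23.8% and 23.3%), and 29 higher and 2 lower in batch 2 than in batch 4 (22.8% and 22.7%). Between batches 3 and 4, 0 members and 0.0% of all genes were called by edgeR, and no member had an unadjusted p under 0.05. Batch 2 against batch 1 gave 0 higher and 16 lower (22.3% and 23.5% of all genes). Which of batches 1 and 2 is higher depended on the scaling: the median log2 fold change of batch 2 over batch 1 was −0.10 with TMM, 0.0052 with library totals and −0.0014 in TPM. Library totals moved the median of all genes in that comparison from 0.033 to 0.137, and in TPM it was 0.104, so relative to the median of all genes the members' median was lower in batch 2 under these 3 scalings.

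**Figure D3:**
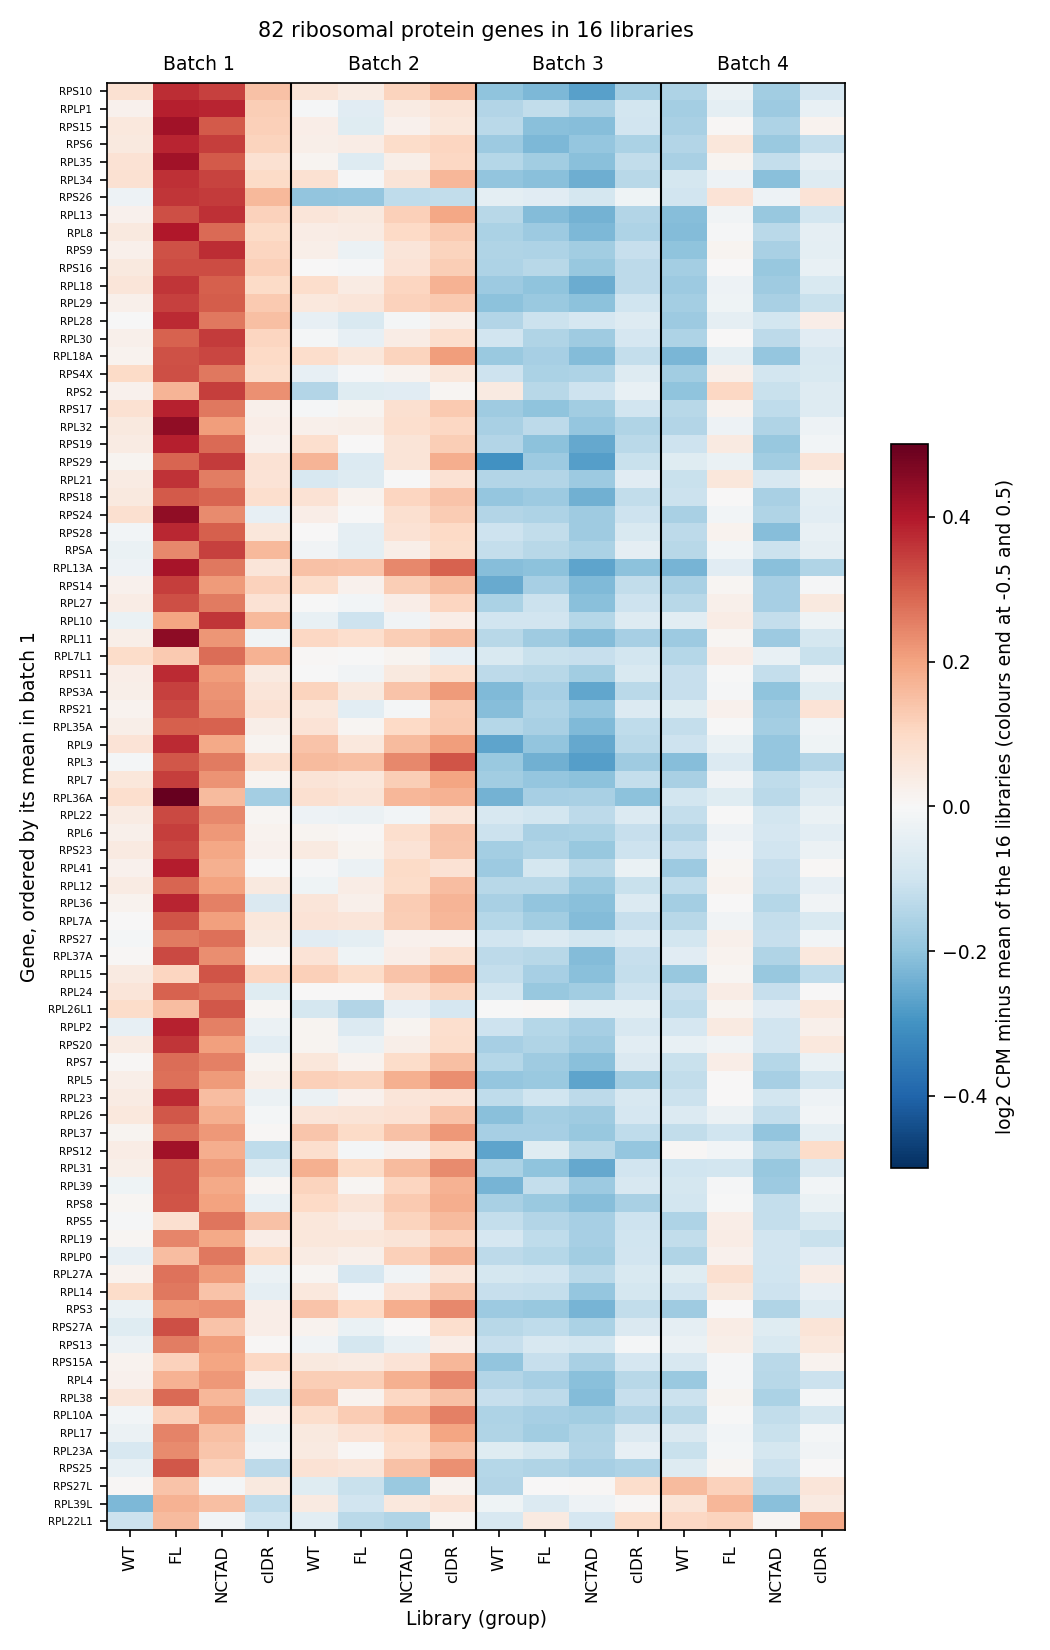
log2 CPM of each of the 82 genes (rows) in the 16 libraries (columns, by batch and group) minus the gene's mean over the libraries, in colour. FL and NCTAD of batch 1 are highest for most genes, batch 3 has the lowest mean in 77 of 82 genes, with RPS2, RPS26, RPS27L, RPL22L1 and RPL26L1 as the exceptions.

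Of the 10 largest rises in batch 2, 9 were large-subunit genes and 1, RPS3, was of the small subunit, among members of which 47 and 32 belong to these subunits. RPL3, which reaches the peptidyl transferase centre, had 1848, 1834, 1952 and 2054 CPM in WT, FL, NCTAD and cIDR of batch 2, 1367 to 1463 in batch 3, 1425 to 1576 in batch 4 and 1643 to 2049 in batch 1. Batch 2 was above batches 3 and 4 without overlap and overlapped batch 1. RPL3 rose by 0.29 on the log2 scale against the other batches (SE 0.053, edgeR adjusted p = 0.00031). RPL13A, with 2283, 2275, 2434 and 2526 CPM in batch 2, 1716 to 1787 in batch 3, 1757 to 1984 in batch 4 and 2024 to 2743 in batch 1, rose by 0.27 (SE 0.058, edgeR adjusted p = 0.0010).

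RPL4, a lining protein of the exit tunnel whose RefSeq window above held no tract, rose by 0.22 (SE 0.046, edgeR adjusted p = 0.00083), with 2353, 2353, 2446 and 2563 CPM in batch 2, 1873 to 1963 in batch 3, 1901 to 2155 in batch 4 and 2194 to 2517 in batch 1. RPS3, at the mRNA entry of the small subunit, rose by 0.22 (SE 0.050, edgeR adjusted p = 0.0016), with 1509, 1466, 1553 and 1617 CPM in batch 2, 1163 to 1257 in batch 3, 1211 to 1370 in batch 4 and 1339 to 1605 in batch 1. In both genes batch 2 lay above batches 3 and 4 without overlap and overlapped batch 1. RPL31, RPL10A, RPL5, RPL37, RPL9 and RPL15 rose by 0.22, 0.22, 0.21, 0.20, 0.19 and 0.18, each a large-subunit protein, and RPL5 also joins RPL11 in the complex that binds MDM2. The call of RPL15 is lost without cIDR replicate 2, and that of RPL9 without replicate 2 of WT, NCTAD or cIDR. By subunit, 17 of 47 large-subunit genes (median 0.10) and 8 of 32 small-subunit genes (median 0.068) were higher in batch 2, shares that lie on either side of the 27.7% of all genes higher there. The difference between subunits was not tested.

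The stalk proteins recruit elongation factors, with RPLP0 as the base on which RPLP1 and RPLP2 sit. RPLP0 rose in batch 2 by 0.12 (SE 0.047, edgeR adjusted p = 0.047), with 2626, 2599, 2774 and 2871 CPM there, 2260 to 2391 in batch 3, 2302 to 2591 in batch 4 and 2485 to 3065 in batch 1. That call is lost when any of 11 of the 16 libraries is left out. RPLP1 had 1176, 1137, 1217 and 1237 CPM in batch 2 and 1202, 1548, 1542 and 1289 in batch 1, and gave 0.013 in batch 2 (SE 0.057, edgeR adjusted p = 0.862) and 0.31 in batch 1 (SE 0.056, edgeR adjusted p = 0.0013). RPLP2 gave 0.011 in batch 2 (SE 0.065, edgeR adjusted p = 0.896) and RPSA 0.017 (SE 0.050, edgeR adjusted p = 0.803). Whether RPLP0 differs from its partners in this was not tested.

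RPS26 was the only member called lower in batch 2 by edgeR with TMM scaling, beside 26.1% of all genes, while 2 were called with the median of ratios and 3 with DESeq2. In all, 13 members had values below 0, the next being RPL26L1 (−0.12, 95% interval −0.23 to −0.014). This small-subunit protein sits at the mRNA exit, and its gene is among those mutated in Diamond-Blackfan anaemia. It had 335, 336, 351 and 352 CPM in batch 2, 377, 492, 489 and 429 in batch 1, 361 to 377 in batch 3 and 359 to 403 in batch 4. All 4 libraries of batch 2 were below the other 12, as for 14.6% of all genes. RPS26 fell by 0.21 on the log2 scale (SE 0.053, edgeR adjusted p = 0.0031), was lower than in batch 1 (−0.37, adjusted p = 0.00023) and batch 4 (−0.16, adjusted p = 0.048), and rose in batch 1 (0.28). Against batch 3 alone the value was −0.11 and did not pass the test (edgeR adjusted p = 0.191). RPS26 has pseudogene rows with counts equal to 9.9% of its own, so reads could be split between them.

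None of the 5 copies passed the test in batch 2, and they were not tested against the other members. RPL26L1 gave −0.12 (SE 0.051, edgeR adjusted p = 0.054), with 29.4, 28.3, 30.4 and 29.6 CPM in batch 2 and 31.6 to 38.9 in batch 1. RPS27L gave −0.11 (SE 0.055, edgeR adjusted p = 0.094) and RPL22L1 −0.11 (SE 0.050, edgeR adjusted p = 0.082). RPL22L1 and RPS27L were highest in batch 4, unlike the 68 members highest in batch 1. RPL39L, with 10.7 to 14.1 CPM over the 16 libraries, gave 0.022 (SE 0.080, edgeR adjusted p = 0.835), and RPL7L1, a protein that acts in assembly of the large subunit, gave −0.0087 (SE 0.040, edgeR adjusted p = 0.869). In batch 1, RPL22L1, RPL39L and RPS27L had the 3 lowest values of the 82, at −0.019, −0.0041 and 0.062.

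The batch 2 difference was also compared between groups. The median difference in log2 CPM of batch 2 from the other batches was 0.13 for WT, −0.048 for FL, 0.11 for NCTAD and 0.17 for cIDR. FL differed in sign, with 24 of 82 members above 0 against 69 to 76 in the other groups. The edgeR test of the interaction called 0 of 82 members and 0.0307% of all genes, with no member at an unadjusted p under 0.05 and a smallest p of 0.567 (RPS25). Among the groups, FL had the highest median log2 CPM of the members in batches 1 and 4 (9.59 and 9.31). In batch 2 it had the lowest (9.30). Each of these lowers the batch 2 difference of FL.

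The lists of assembly factors, RNA polymerase I genes and mitochondrial ribosomal proteins had medians below 0 in batch 2, where the members' median was above 0, a difference that was not tested. Of 48 ribosome assembly factors, 39 were lower and 2 higher in batch 2 (median −0.32), beside 26.1% and 27.7% of all genes. In batch 1, 36 of the 48 were higher and 0 lower (median 0.23), beside 14.9% and 9.77% of all genes. NOP2, a methyltransferase of ribosomal RNA, fell by 0.79 (SE 0.036, edgeR adjusted p = 2.6e-10), from 117, 101 and 102 CPM in batches 1, 3 and 4 to 61.2 in batch 2. RRS1, which brings RPL5 and RPL11 into the large subunit, fell by 0.75 (SE 0.055, edgeR adjusted p = 4.2e-08), and UTP4, of the small-subunit processome, by 0.54 (SE 0.041, edgeR adjusted p = 6.6e-08).

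RNA polymerase I transcribes ribosomal RNA. Of its 14 listed subunits and factors, 7 were lower and 2 higher in batch 2 (median −0.20), where 26.1% of all genes were lower and 27.7% higher. The subunit POLR1G fell by 0.81 (SE 0.050, edgeR adjusted p = 8.1e-09) and the factors UBTF and RRN3 by 0.54 and 0.40. Of 77 mitochondrial ribosomal proteins, 37 were lower and 5 higher beside the same shares of all genes (median −0.11), led by MRPL15, which fell by 0.65 from 98.0 to 105 CPM to 65.0. In batch 1, 37 of the 77 were higher and 0 lower, beside 14.9% and 9.77% of all genes. Batches 1 and 2 were both above batches 3 and 4 in most cytosolic ribosomal proteins. Against the mean of the others, their medians had opposite signs for assembly factors, RNA polymerase I and mitochondrial ribosomal proteins. Each of these means held the other batch, so the signs are not independent. Against batches 3 and 4 singly, batch 1 medians were 0.14 and 0.12, 0.050 and 0.040, and 0.13 and 0.092 for these lists in order. Against the mean of the others, batches 3 and 4 gave 0.040 and 0.069, 0.10 and 0.083, and −0.031 and 0.031.

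**Figure D4:**
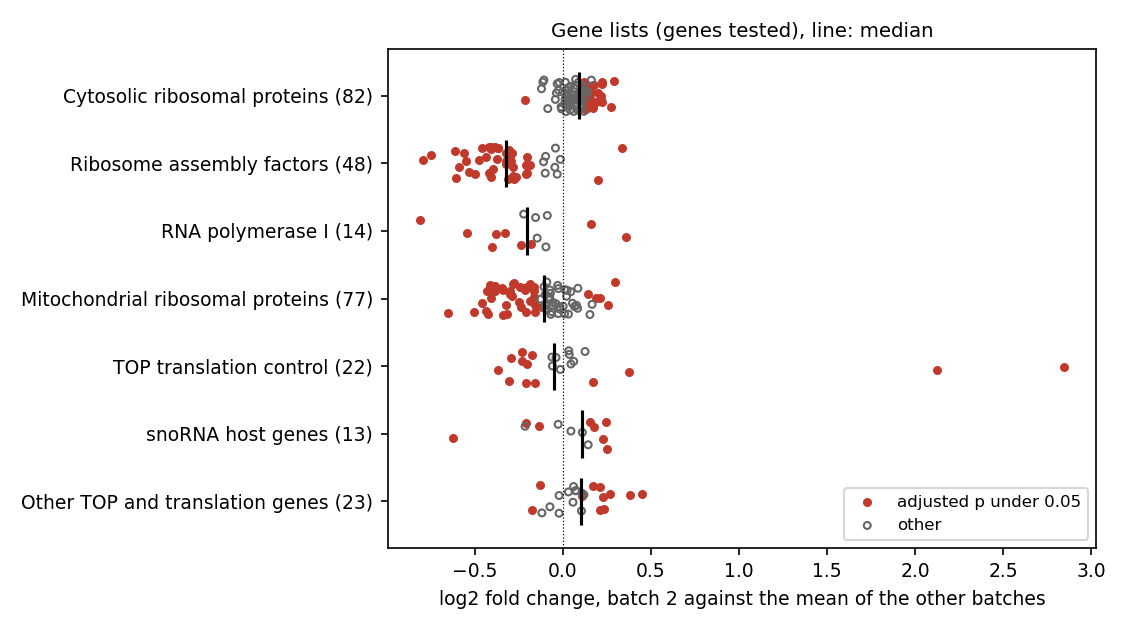
log2 fold change of batch 2 against the mean of the other batches (horizontal axis) for the 82 genes and for 6 lists; each point is a gene, filled where edgeR passed it, and the line is the median. Assembly factors lie low (median −0.32), ribosomal proteins and other TOP genes slightly above 0 (0.088 and 0.10), and DDIT4 and SESN2 reach 2.85 and 2.13.

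Among other genes with TOP tracts or roles in translation, the medians had the sign of the members in each batch. Of 23, 9 were higher and 2 lower in batch 2 (median 0.10), beside 27.7% and 26.1% of all genes. In batch 1, 12 were higher and 0 lower (14.9% and 9.77% of all genes), and in batch 3, 13 were lower and 0 higher (8.31% and 7.66%). The batch 2 count of 9 higher ran from 4 to 16 over 27 alternatives. EIF4B, an initiation factor, rose in batch 2 by 0.45 (SE 0.046, edgeR adjusted p = 1.3e-06), EEF2, the translocation factor, by 0.38 (SE 0.040, edgeR adjusted p = 1.7e-06), and EIF3E by 0.27 (SE 0.044, edgeR adjusted p = 0.00013). Among 13 hosts of small nucleolar RNAs, 5 were higher and 3 lower in batch 2 (median 0.11), beside the same 27.7% and 26.1% of all genes. ZFAS1 rose by 0.25 and SNHG16 by 0.23, and SNHG12 fell by 0.63. Among the 66 members with a RefSeq window, the median in batch 2 was 0.089 for the 53 with a tract and 0.040 for the 13 without, while 15 of the 53 and 5 of the 13 passed the test in either direction, RPS26 among the latter. In batch 1 the medians were 0.216 and 0.218, and differences between the sets were not tested.

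Of 22 genes that set mTORC1 activity or bind the tract, 4 were higher and 9 lower in batch 2 (median −0.050), beside 27.7% and 26.1% of all genes. The 3 with the smallest p were all higher. DDIT4 and SESN2, inhibitors of mTORC1 induced by stress, rose by 2.85 (SE 0.038, edgeR adjusted p = 5.8e-16) and 2.13 (SE 0.047, edgeR adjusted p = 2.4e-13), DDIT4 from 66.8 to 82.8 CPM in the other batches to 518. EIF4EBP1, a repressor of initiation, rose by 0.37 (SE 0.055, edgeR adjusted p = 4.6e-05). In the group comparisons with batch as a block, DDIT4 in cIDR against WT was the only gene called from the translation and ribosome lists (log2 fold change 0.31, SE 0.052, edgeR adjusted p = 0.011).

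Batch 2 also stood apart in other measures. Of 15 genes that mark a hypoxic response, 14 were higher there (median 1.495), where 27.7% of all genes were higher and 26.1% lower, PDK1 rising from 3.596 to 4.37 CPM in the other batches to 27.4 and BNIP3 from 66.5 to 71.5 to 230. Their mean log2 CPM was 5.13 in batch 2 (SD 0.342, n = 4) and 3.67 to 3.69 in the other batches, though the labels give 21% oxygen for each library. Genes with at least 1 count numbered 27130 to 27319 in the libraries of batch 2 and 24649 to 26385 in the other 12, without overlap. The summed share of histone genes was higher there, at 0.0786% to 0.0816% of counts against 0.0551% to 0.0623% in the other libraries. Counts on 485 tested ribosomal protein pseudogenes were higher there for 285 and lower for 5 (median 0.49), and the 285 ran from 104 to 345 over 27 alternatives. Pseudogene counts equalled 6.72% of member counts in batch 2 (SD 0.417, n = 4) against 5.63%, 5.67% and 5.82% in batches 1, 3 and 4. The part of each in the batch 2 differences of the members was not tested. In single members, pseudogene counts reached 22.6% of the member's own in RPL21, 21.6% in RPL23A and 19.9% in RPS3A, so reads of these genes may be split with their pseudogenes, and RPL36A, RPL17 and RPS10 share sequence with readthrough rows.

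Length was weakly related to the members' batch 2 values: for 82 genes that share their libraries, Pearson's r of log2 effective length with the log2 fold change was 0.083. The longest 28 members had a median of 0.12 with 15 higher and the shortest 27 a median of 0.078 with 4 higher, beside 27.7% of all genes, but the middle 27 had the lowest median, 0.060, with 7 higher and 1 lower. In batch 4 the relation had the opposite sign, with r = −0.23 (Spearman's rho −0.32), and in batches 1 and 3 r was 0.010 and 0.076. In bulk libraries such as these, a different mix of cells and a different level per cell cannot be told apart.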

How the data were processed

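Poly(A)-selected stranded RNA-seq libraries were made from about 250 ng of total RNA, per the labels' protocols. The estimated counts per gene were deposited by the authors without scaling to depth or length, and Salmon is named in the table and, with fastp, STAR, featureCounts and GRCh38, in the submitters' processing notes. The deposited TPM values come from the same quantification by the authors and sum to the same total in each library. Versions and the annotation release are not given in the sources used here.

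Counts (15.5% not whole) were rounded, genes of low count were removed with filterByExpr by group, and 19530 genes were tested by quasi-likelihood in edgeR 4.0.16 (R 4.3.3, TMM), Benjamini-Hochberg adjustment over all genes and a threshold of 0.05. Group was the only term in group comparisons, with batch as a replicate block as an alternative. Batch contrasts used group and batch. SE was taken as log2 fold change over the root of F, and a prior count of 2 entered log2 CPM. The labels give the replicate number as batch: the mean correlation of deviations from group means was 0.308 for libraries sharing a number and −0.0945 otherwise. The biological coefficient of variation was 0.245 without and 0.108 with the block. TPM was tested with limma 3.58.1. Scripts were tested on counts simulated with a single spread for all genes. With group as the only term, FL against WT called 0 of 67 genes with a true log2 change of 0.25. It called 1 of 67 at 0.5 and 41 of 66 at 1. For batch 2 against the others, with group and batch, the counts were 13 of 67, 66 of 67 and 66 of 66. The members' own spread was not simulated.

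The members, gene lists and tests were chosen with earlier results of these data known. Named were RPLP0, RPLP1, RPLP2, RPSA, the copies, the 3 members of smallest p per group comparison, up to 10 largest rises and falls called in batch 2, members next to the count minimum and, per other list, the 3 genes of smallest p in batch 2. RPS13, RPS25 and genes named by TPM order, variance, pseudogene share or tract were named after their values were seen. Promoter sequences are from RefSeq. Figures were drawn with matplotlib 3.10.9.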

Additional observations from a re-analysis of the deposited data

Results flagged for a closer look

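In groups of 4 libraries, 5 of the 124 combinations tested had 1 library far from the other 3. A combination was a gene or a summed share of the members in 1 group, and the 5 were all genes. Chance alone flags about 1 in 20. RPL28 reached 687.9 CPM, RPLP1 1547.8 and RPS12 820.3 in FL of batch 1, each the highest of the 4 FL libraries. RPL26L1 reached 38.9 CPM in NCTAD of batch 1, the highest of the 4 NCTAD libraries. RPL31 reached 355.5 CPM in cIDR of batch 2, the highest of the 4 cIDR libraries.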

How the results depend on the processing

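No group comparison called a member under any alternative, among them size factors by the median of ratios, library totals, DESeq2, no filter, TPM, 8 libraries only, without batch 2, and each library left out, where the count was 0 throughout. With batch as a replicate block, the pairing given by the labels, it was 0 too and no member's call changed. Batch counts moved more, and their cause was not tested. The alternatives for batches 1, 3 and 4, for pairs of batches, for the other gene lists and for settings joined with the block were chosen after seeing the data. With library totals, 50 members were higher in batch 2, 43 in batch 1, 49 in batch 2 over batch 4 and 26 in batch 1 over batch 4, and 1 was lower in batch 2 than in batch 1. On log2(TPM + 1) and log2(TPM + 0.1), 10 and 13 were higher in batch 1, 31 and 32 lower in batch 3, 0 and 0 lower in batch 4, 1 and 1 lower in batch 2 than in batch 1, 19 and 24 higher in batch 1 than in batch 3, and 0 and 0 higher in batch 1 than in batch 4. As TPM, the members' share averaged 17.3%. Lower in batch 2 were 2 members with the median of ratios, 3 with DESeq2 and 2 without the group term, and DESeq2 gave 14 lower in batch 4. Batch 2 against batch 1, 3 or 4 alone gave 0, 54 and 29 higher and 16, 0 and 2 lower.

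With 1 library left out, batch 2 counts ran from 8 to 44 higher and 1 to 3 lower, batch 1 from 32 to 78 higher, batch 3 from 16 to 72 lower and batch 4 from 0 (without replicate 4 of WT, NCTAD or cIDR) to 12 (without replicate 1 of FL or cIDR) lower. The batch 2 count moved by over 1.5 times without any of replicates 1, 2 and 4 of WT, 1 and 3 of FL, 2, 3 and 4 of NCTAD, or 1 to 4 of cIDR. Assembly factors lower in batch 2 stayed between 32 and 41 and RNA polymerase I genes between 4 and 9 over 27 alternatives.

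Signs of small values turned. Against batch 1 alone, batch 2 gave −0.031 for RPLP0, −0.22 for RPLP1, −0.14 for RPLP2, −0.17 for RPSA, −0.023 for RPL9 and −0.011 for RPL15. RPL39L gave −0.00098 against batch 4. RPL7L1 gave 0.063 with library totals, 0.12 and 0.12 in TPM with either pseudocount, and 0.092 and 0.058 against batches 3 and 4. With 1 library left out, batch 2 values ran from −0.014 to 0.053 for RPLP1, −0.028 to 0.063 for RPLP2, −0.010 to 0.042 for RPSA, −0.016 to 0.083 for RPL39L and −0.029 to 0.00099 for RPL7L1. Group values ran from −0.16 to 0.015 (RPL23, cIDR against FL), −0.099 to 0.033 (RPL26L1, cIDR against NCTAD), −0.27 to 0.00022 (RPL36A, cIDR against FL), −0.18 to 0.016 (RPS12, NCTAD against FL), −0.18 to 0.0070 (RPS12, cIDR against FL) and −0.0023 to 0.17 (RPSA, NCTAD against WT).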
